A study of Mus musculus with 6 samples.

Results

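The Egr and Nr4a genes are small families of transcription factors that many cells switch on within minutes of a stimulus. The rule takes them by symbol, with no threshold on their values, though the families were picked with earlier results of these data known. Of the 7 symbols Egr1 to Egr4 and Nr4a1 to Nr4a3, 6 are among the 16415 genes of the deposited table. Egr4 was not analysed here. All 6 passed the filter on low values. They were compared between 3 libraries labelled NC-up and 3 labelled SETDB2-up, each of polyadenylated RNA from the trigeminal ganglion of wild type (WT) mice. The trigeminal ganglion holds the cell bodies of the sensory neurons of the head, with satellite glia and Schwann cells. The labels carry no strain or age. They do not spell out NC-up or SETDB2-up, how either treatment was given or which cells it reached. No label ties the libraries to separate animals, so each p-value reflects only the spread among the 6 libraries, which may be technical.

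The Egr proteins bind a GC-rich DNA element through zinc fingers, and the corepressors Nab1 and Nab2 bind to Egr1, Egr2 and Egr3. In sensory ganglia Egr2, also called Krox20, is in addition a lasting factor of myelinating Schwann cells, while Egr1 and Egr3 are best known as fast responders to neuronal activity and growth factors. Nr4a1 (Nur77), Nr4a2 (Nurr1) and Nr4a3 (Nor1) are orphan nuclear receptors that bind DNA as monomers at the NBRE element, as dimers, or, for Nr4a1 and Nr4a2, with retinoid X receptors. Their transcripts are short-lived, and both families are induced through MAP kinases, the serum response factor Srf and the cAMP response element binding protein CREB.

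The stretches upstream of the start sites are shown because CREB and Srf act on immediate early genes through such elements. The 250 bases before an annotated start site were taken from RefSeq (GRCm38.p6). Egr3 had no entry in the source used, and Egr1 was not examined here. Stretches of the other 4 of the 6 members are shown. They lie at chr10:67537619-67537868 on the plus strand for Egr2 (the third of its 5 entries), chr15:101266596-101266845 on the plus strand for Nr4a1, chr2:57124004-57124253 on the minus strand for Nr4a2 and chr4:48045055-48045304 on the plus strand for Nr4a3. The stretches of Egr2 and Nr4a1 lie inside the genes as listed, which begin at chr10:67534469 and chr15:101253902. That of Nr4a3 lies mostly inside its listed gene, which begins at chr4:48045078. Only that of Nr4a2 lies just before its listed gene. Each is written 5′ to 3′ along the gene's own strand. Capitals mark the core of the cAMP response element, TGACG or its reverse complement CGTCA, and the CArG box, which Srf binds.
Egr2: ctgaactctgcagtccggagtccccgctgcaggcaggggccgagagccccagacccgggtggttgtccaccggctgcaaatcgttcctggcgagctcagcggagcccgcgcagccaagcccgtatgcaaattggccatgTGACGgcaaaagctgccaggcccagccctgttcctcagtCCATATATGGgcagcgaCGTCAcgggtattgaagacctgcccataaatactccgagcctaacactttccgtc
Nr4a1: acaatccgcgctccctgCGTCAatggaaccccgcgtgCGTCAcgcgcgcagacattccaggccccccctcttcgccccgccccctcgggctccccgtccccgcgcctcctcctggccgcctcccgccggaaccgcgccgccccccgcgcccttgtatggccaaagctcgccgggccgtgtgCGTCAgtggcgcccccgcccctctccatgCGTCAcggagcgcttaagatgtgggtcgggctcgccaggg
Nr4a2: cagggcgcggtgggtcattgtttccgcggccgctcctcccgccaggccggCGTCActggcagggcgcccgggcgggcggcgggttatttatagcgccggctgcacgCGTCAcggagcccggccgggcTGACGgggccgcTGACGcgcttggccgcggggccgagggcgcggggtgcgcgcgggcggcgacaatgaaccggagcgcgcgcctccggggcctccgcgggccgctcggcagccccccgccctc
Nr4a3: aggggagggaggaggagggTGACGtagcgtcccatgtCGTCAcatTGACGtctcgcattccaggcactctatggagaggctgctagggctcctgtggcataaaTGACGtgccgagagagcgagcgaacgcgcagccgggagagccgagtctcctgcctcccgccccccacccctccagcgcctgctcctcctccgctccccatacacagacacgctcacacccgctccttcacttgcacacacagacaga
The cAMP response element core was found 4 times in each of the 3 Nr4a stretches and 2 times in that of Egr2, which also held 1 CArG box. Of the other Egr2 entries, the first held neither element and the second held a CArG box and no core, while the last pair overlaps the stretch shown and holds the same counts. Among 32851 RefSeq stretches of the same length, searched on both strands, 17.8% held at least 1 core, 0.688% held 3 or more and 0.137% held 4 or more. A CArG box was in 1.47% of them, and both elements together in 0.170%. The full element TGACGTCA, the Egr site GCGTGGGCG and the NBRE AAAGGTCA were not in the 4 stretches and were in 1.55%, 0.536% and 1.34% of all. The core TGACG is part of the full element, so these counts overlap. The shares were not matched to the GC content of the 4 stretches, 61.6% for Egr2 to 80% for Nr4a2, and the core itself holds CG. A match describes the letters only.

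The libraries held 19334997 to 23501386 recovered reads over the listed genes. Levels are normalised read counts, that is, reads divided by 1 factor per library. Setdb2, which the treatment label names, had levels of 69.9, 58.4 and 71.5 in NC-up, against 113, 97.6 and 104 in SETDB2-up. It was higher in every SETDB2-up library and rose by 0.65 ± 0.19 (SE) on the log2 scale (limma, adjusted p = 0.0253), a call lost in 8 of 20 alternatives (0.49 and adjusted p = 0.139 after the correction for GC content described further on). Leaving out NC-up library 2 (0.56) or SETDB2-up library 1, 2 or 3 (0.60, 0.70 and 0.66) lost it too. SETDB2-up libraries 1 and 2 stood apart in 9 liver transcripts such as Alb, which summed to 2545 and 6097 there, to 56.2 in library 3 and to 14.8 to 25.9 in NC-up. Results are therefore also given without those 2 libraries.

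In the SETDB2-up libraries Egr1, Egr3, Nr4a1 and Nr4a3 were lower, by 27.6% to 57.5% of the NC-up mean, and Egr2 and Nr4a2 did not pass the test. Thus 4 of the 6 members fell and 0 rose at an adjusted p under 0.05 (limma, Benjamini-Hochberg over all 16387 genes tested), where 8.71% of all genes fell and 7.71% rose. The same 4 members were lower in every SETDB2-up library than in any NC-up library, a separation that 16.4% of all genes showed in that direction. The median log2 difference was -0.58 over the 6 members and 0.00 over all genes. In whole tissue, fewer cells of a type and less RNA per cell cannot be told apart.

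Egr1 (gene 13653, chr18:34861207-34864956, plus strand) is the widely used marker of recent activity also known as Zif268. NC-up libraries 1 to 3 held 421, 408 and 235 normalised reads of it, and SETDB2-up libraries 1 to 3 held 209.9, 212 and 211. NC-up library 3 lay near the SETDB2-up libraries, which were almost equal to each other, so the groups were separate by a narrow gap. Means were 355 ± 104 (SD, n = 3) and 211 ± 0.911 (SD, n = 3). Counting alone gives the lowest Egr1 library a relative error of 6.93%, wider than the SETDB2-up spread, so that SD understates the error. Egr1 fell by 0.70 ± 0.17 (SE) on the log2 scale (95% interval -1.04 to -0.35, limma adjusted p = 0.00746). Without NC-up library 2 the log2 difference was -0.57 and did not pass (limma adjusted p = 0.0564, against 0.000183 to 0.240 over its 26 alternatives).

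Egr3 (gene 13655, chr14:70077317-70082613, plus strand) is the family member needed for muscle spindle sensory endings to form. In NC-up its levels were 284, 398 and 265, against 194, 192 and 181 in SETDB2-up. NC-up library 2 was the highest, and all 3 NC-up libraries were well above all 3 SETDB2-up libraries. The means were 316 ± 72.0 and 189 ± 6.90 (SD, n = 3 each). Counting alone gives the lowest Egr3 library a relative error of 7.27%, wider than the SETDB2-up spread. Egr3 fell by 0.71 ± 0.14 (SE) on the log2 scale (95% interval -1.01 to -0.42, limma adjusted p = 0.00223).

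Egr2 (gene 13654, chr10:67534469-67542188, plus strand) showed no such separation. Levels were 1005, 859 and 888 in the NC-up libraries and 795, 1011 and 1040.5 in the SETDB2-up libraries. The groups overlapped, with the lowest and the highest library both in SETDB2-up. Its log2 difference was 0.04 ± 0.10 (SE) with a 95% interval of -0.16 to 0.24 (limma adjusted p = 0.807), an interval that excludes a fall as large as the estimates for Egr1 and Egr3.

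Nr4a1 (gene 15370, chr15:101253902-101274795, plus strand), the orphan receptor Nur77, had the highest counts in NC-up. Its NC-up levels were 1286, 1225 and 1057, and its SETDB2-up levels 769, 898 and 916. The lowest NC-up library was above the highest SETDB2-up library. The means were 1189 ± 119 and 861 ± 79.8 (SD, n = 3 each). Nr4a1 fell by 0.46 ± 0.09 (SE) on the log2 scale (95% interval -0.65 to -0.28, limma adjusted p = 0.00140).

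Nr4a3 (gene 18124, chr4:48045078-48086447, plus strand), the receptor Nor1, was the member with the lowest level and the largest log2 difference of the 6. NC-up libraries held 49.8, 71.8 and 57.2 normalised reads and SETDB2-up libraries 25.6, 24.4 and 25.9. These values rest on 47, 75 and 64 recovered reads in NC-up and on 27, 24 and 29 in SETDB2-up, so counting alone gives the lowest library a relative error of 20.4%. The SETDB2-up libraries were nearly alike, closer than that counting error, so their SD understates the error. The groups were far apart. Nr4a3 fell by 1.19 ± 0.28 (SE) on the log2 scale, from 59.6 ± 11.2 to 25.3 ± 0.789 (SD, n = 3 each; limma adjusted p = 0.00642).

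Nr4a2 (gene 18227, chr2:57106830-57124003, minus strand), the receptor Nurr1, overlaps the listed gene LOC105244150 on the same strand. Levels of 451, 405 and 357 in NC-up faced 294, 368 and 367 in SETDB2-up. The 2 higher SETDB2-up libraries lay above the lowest NC-up library. Its log2 difference was -0.24 ± 0.12 (SE), with a 95% interval of -0.48 to 0.01 (limma adjusted p = 0.177). This interval includes 0 and also the estimate for Nr4a1.

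**Figure D1:**
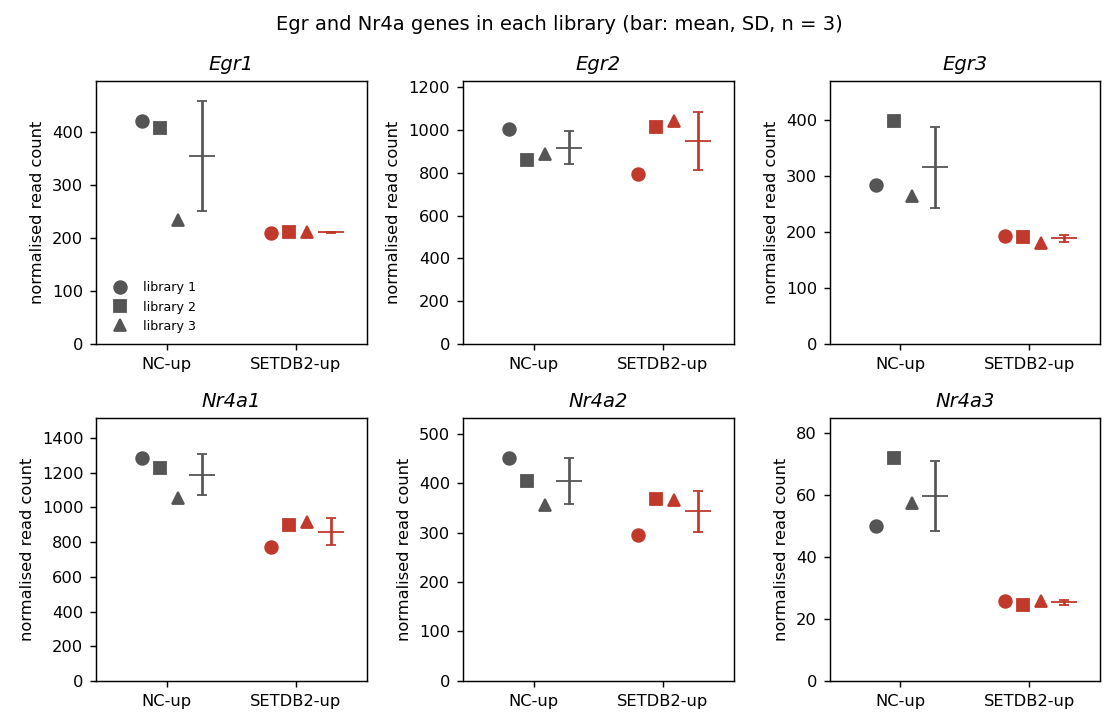
Normalised read count of each member in each library, with 1 panel per gene, points for the 3 NC-up and 3 SETDB2-up libraries and a bar with an error bar for each group's mean and SD. Egr1, Egr3, Nr4a1 and Nr4a3 show no overlap between the groups, with NC-up library 3 at 235 for Egr1 close to the SETDB2-up values; Egr2 and Nr4a2 overlap.

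**Figure D2:**
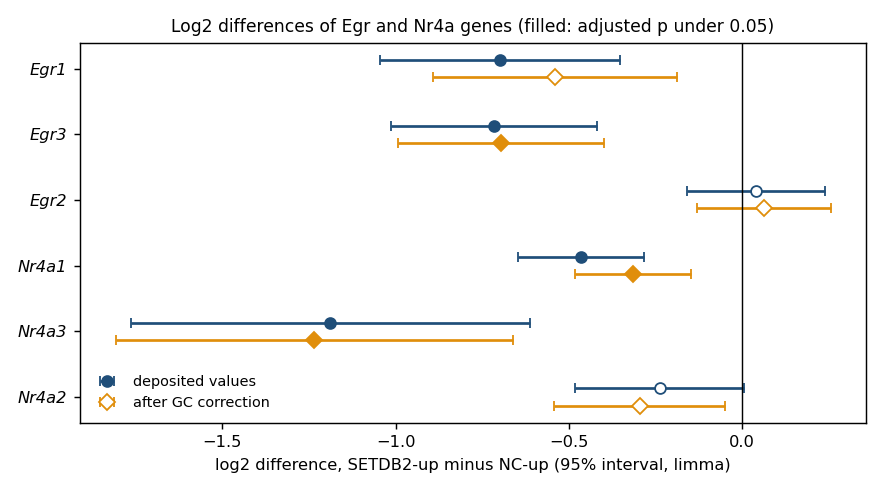
Log2 difference (SETDB2-up minus NC-up) of each member with its 95% interval from limma, from the deposited values (circles) and after the correction for GC content (diamonds), filled where the adjusted p is under 0.05. The intervals of Egr1, Egr3, Nr4a1 and Nr4a3 lie below 0 in both, that of Nr4a2 only after the correction, and those of Egr2 span 0. Intervals are not adjusted for the number of genes, and Egr1 after the correction is not filled.

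Per length, Nr4a1 was the highest member in NC-up and Egr2 in SETDB2-up by mean. In normalised reads per kilobase of exon, NC-up levels were 339 ± 33.9 for Nr4a1, 269.965 ± 22.8 for Egr2, 99.6 ± 11.7 for Nr4a2, 79.1 ± 23.1 for Egr1, 71.7 ± 16.3 for Egr3 and 9.96 ± 1.87 for Nr4a3 (SD, n = 3). Nr4a1 was above Egr2 in every NC-up library, and the ranges of Nr4a2, Egr1 and Egr3 overlapped. In SETDB2-up, Egr2 stood at 279 ± 39.4 and Nr4a1 at 245 ± 22.7, with overlapping ranges, followed by Nr4a2 at 84.5 ± 10.4, Egr1 at 47.1 ± 0.203, Egr3 at 42.9 ± 1.57 and Nr4a3 at 4.23 ± 0.132 (SD, n = 3).

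Ratios between members within 1 library do not depend on the scaling. The ratio of Egr2 to Egr3 counts was 3.54, 2.16 and 3.34 in the NC-up libraries, against 4.10, 5.26 and 5.74 in SETDB2-up. For Nr4a1 to Nr4a2 it was 2.85, 3.02 and 2.96, against 2.61, 2.44 and 2.50. Neither ratio overlapped between the groups. That held for 9 of the 15 pairs of members, which share genes, and no share over pairs of all genes was computed. The 9 of 15 is thus a description and no result about the members. The ratio of Egr1 to Egr3 did overlap (1.48, 1.02 and 0.886 against 1.08, 1.10 and 1.17). With 3 libraries against 3 a two-sided exact permutation test cannot give less than p = 0.1, which is 0.167 after adjustment over the 15 pairs compared. This test can therefore not pass a threshold of 0.05 for any ratio.

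The difference between the groups followed the GC content of transcripts, and the members sit at different places on that scale. Transcripts of Egr1 and Nr4a1 hold 57.3% and 57.0% GC and are in decile 9 of all genes by GC content, where the median log2 difference was -0.14 and 17.6% of genes fell. Those of Egr2, Egr3, Nr4a3 and Nr4a2 hold 51.4%, 51.3%, 48.4% and 47.9%, in deciles where 2.45% to 5.48% fell. After a correction for GC content (a smooth curve removed from each library), 3 of the 6 members passed, all lower, where 6.17% of all genes passed in either direction. Egr3 kept a log2 difference of -0.70 (limma adjusted p = 0.00746), Nr4a1 had -0.31 (adjusted p = 0.0267) and Nr4a3 had -1.24 (adjusted p = 0.0122). Egr1 had -0.54 and did not pass (adjusted p = 0.0647). Nr4a2 had -0.29 with an interval of -0.54 to -0.05 before adjustment for the number of genes, and did not pass (adjusted p = 0.156). The part of GC content in the Egr1 and Nr4a1 results is given by these values alone, and no other cause of the GC trend was tested.

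**Figure D3:**
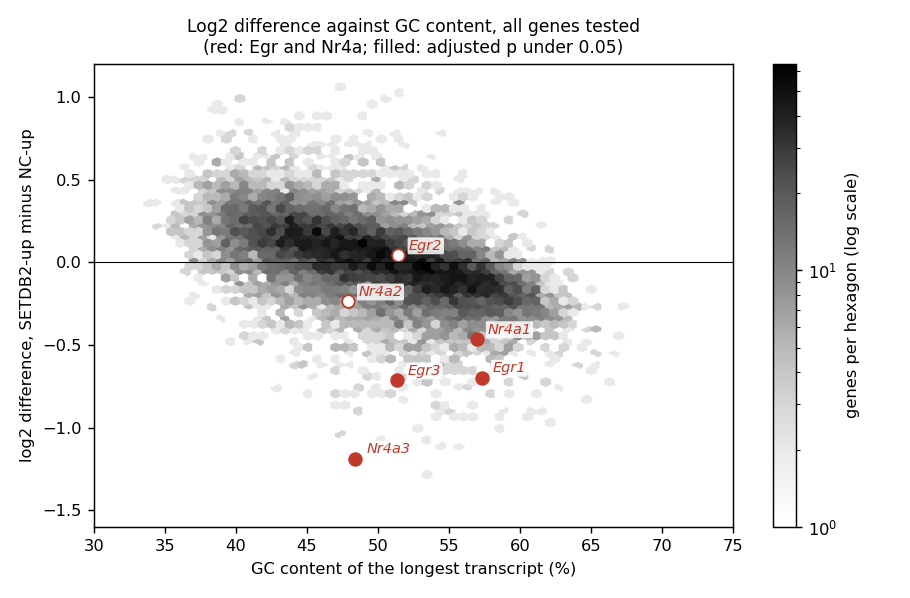
Log2 difference (SETDB2-up minus NC-up) against GC content of the longest annotated transcript, in percent, for the genes tested, shaded by number of genes, with the 6 members in red, filled where the adjusted p is under 0.05; 79 of 15513 genes lie outside the axes and are not drawn. Genes of high GC content lie lower, and Nr4a3 and Egr3 lie below the bulk of genes of similar GC content.

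Both Nab corepressors of the Egr proteins were lower in SETDB2-up. Of the 5 listed corepressors and partners, Nab1 and Nab2 fell and 0 rose, where 8.71% of all genes fell. Nab2, which is itself an Egr target and feeds back on it, had 782, 822 and 865 in NC-up, against 539, 507 and 543 in SETDB2-up, a fall of 0.64 ± 0.08 (SE) on the log2 scale (limma adjusted p = 5.45e-05). Nab2 lies opposite Stat6, which held 3.40 times its reads, and whether the counting used strand is unknown from the sources used here. Nab1 stood at 911, 1053 and 874 against 779, 699 and 803, a fall of 0.31 ± 0.09 (SE, limma adjusted p = 0.0173). Nab1 lost its call without NC-up library 2 (-0.23), without SETDB2-up library 1 (-0.33) and without SETDB2-up library 2 (-0.25). After the GC correction Nab2 had a smaller log2 difference of -0.41 (limma adjusted p = 0.00482) and Nab1 had -0.38 (limma adjusted p = 0.0112), and both passed. Chd3, Chd4 and Hcfc1 had log2 differences of -0.08, -0.07 and 0.02 and did not pass.

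Of 8 genes listed as NR4A partners, the retinoid X receptor Rxrb fell and 0 rose, where 8.71% of all genes fell. Its log2 difference was -0.30 (limma adjusted p = 0.0195). Rxra, another retinoid X receptor, had -0.07 with a 95% interval of -0.23 to 0.09. Rxrb lost its call without NC-up library 2 (-0.24), SETDB2-up library 1 (-0.24) or 2 (-0.25). After the GC correction Rxrb had -0.04 and did not pass.

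Among the AP-1 subunits, the partner immediate early family, 2 of 7 fell and 0 rose, where 8.71% of all genes fell. Jund fell by 0.64 ± 0.06 (SE) on the log2 scale (limma adjusted p = 3.2e-06) and Jun by 0.35 ± 0.06 (limma adjusted p = 0.000678). After the GC correction these were -0.20 and -0.23 and both still passed (adjusted p = 0.0183 and 0.0177). Fos and Fosb, named after their values were seen, did not pass. Fos was at 104, 71.8 and 76.0 in NC-up, against 95.9, 86.5 and 89.2 in SETDB2-up, with a log2 difference of 0.13 and a 95% interval of -0.29 to 0.54 (limma adjusted p = 0.709). Fosb was 13.8, 12.5 and 16.98 against 26.6, 22.4 and 15.2, with a log2 difference of 0.52 and an interval of -0.34 to 1.37 (limma adjusted p = 0.426). Both intervals are wide, and no test of the difference between Fos and Egr1 was made.

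Of 36 other immediate early genes tested, 6 fell and 0 rose, where 8.71% of all genes fell. The 6 were Amigo3, Klf2, Sik1, Klf4, Per1 and Ier5. Klf4, a zinc finger factor named in the series title, had 216, 203 and 175 in NC-up, against 118, 147 and 101 in SETDB2-up, a fall of 0.71 ± 0.16 (SE) on the log2 scale (limma adjusted p = 0.00612). Sik1, a kinase that restrains CREB coactivators, fell by 0.62 (limma adjusted p = 0.00437), and Klf2 by 0.65 (limma adjusted p = 0.0037). Amigo3 fell by 0.31 (limma adjusted p = 0.00262) and lies opposite Rnf123, which held 1.55 times its reads. Per1 and Ier5, named after their values were seen, fell by 0.47 and 0.41. Per1 lost its call without NC-up library 2 (-0.32) or SETDB2-up library 1 (-0.36), and Ier5 without NC-up library 3 (-0.35), SETDB2-up library 1 (-0.34) or 2 (-0.40). After the GC correction 4 genes of the list passed, namely Klf4, Sik1, Rheb and Mcl1. The activity markers Arc and Npas4, also named after their values were seen, did not pass. Arc had a log2 difference of -0.15 (95% interval -0.53 to 0.24) and Npas4 -0.48 (95% interval -1.49 to 0.54).

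Upstream factors and feedback inhibitors are read beside the 16.4% of all genes that passed in either direction. Srf fell by 0.40 (limma adjusted p = 0.00399), and the other 5 of 6 genes of its list, the Elk factors and Mrtf coactivators, did not pass. Of 8 CREB family genes and coactivators, Crtc3 fell by 0.29 (limma adjusted p = 0.0136) and 0 rose; without NC-up library 2 Crtc3 did not pass (-0.27). Of 7 MEF2 factors and class IIa deacetylases, 0 passed in either direction. Of 20 upstream kinases, Map2k2, Prkaca and Rps6ka4 fell by 0.36, 0.30 and 0.26, and Rps6ka3 rose by 0.30. Rps6ka4 lost its call without NC-up library 1 (-0.25) or 3 (-0.23) and without SETDB2-up library 1 (-0.23) or 2 (-0.24). Of 15 MAP kinase feedback inhibitors, which are themselves induced by the pathway, Dusp8, Dusp7 and Dusp5 fell by 0.37, 0.43 and 0.27. Dusp5 lost its call without NC-up library 2 (-0.20) or 3 (-0.25) and without SETDB2-up library 1 (-0.27) or 2 (-0.26). After the GC correction 0 genes of these 5 lists passed in either direction (Srf -0.05, limma adjusted p = 0.786), where 6.17% of all genes passed.

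**Figure D4:**
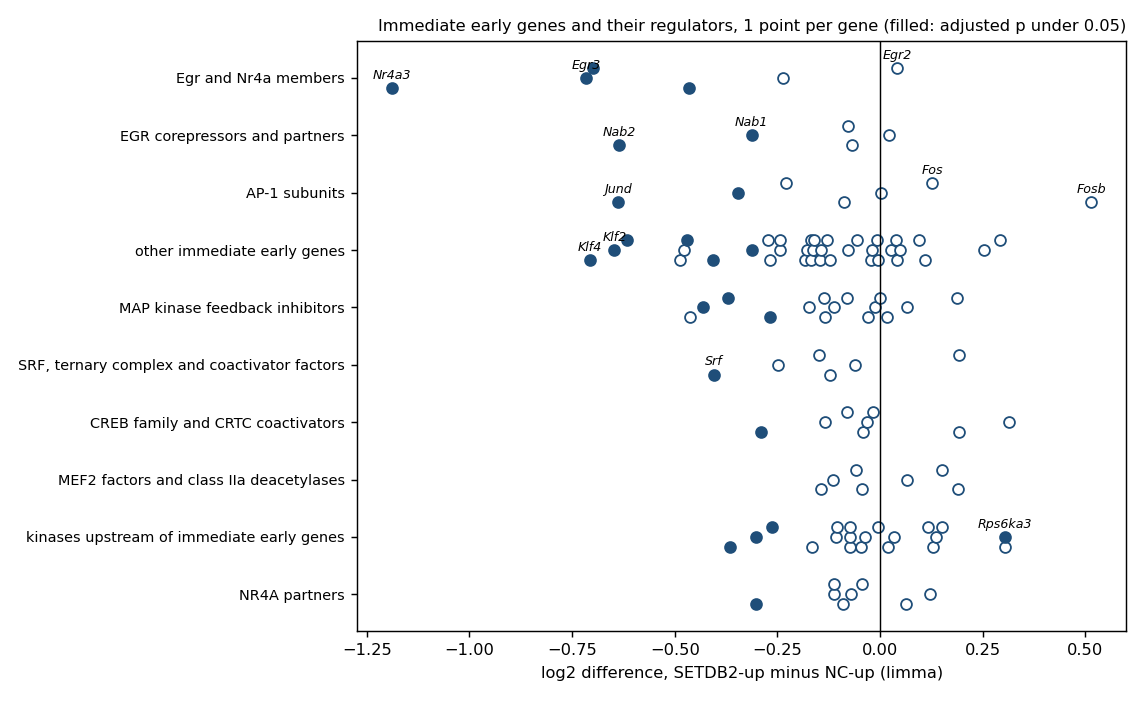
Log2 difference (SETDB2-up minus NC-up) of each tested gene in the lists of members, cofactors, other immediate early genes and upstream factors, with 1 row per list and filled points for genes past the threshold. Members below -0.4 are Egr1, Egr3, Nr4a1 and Nr4a3; most upstream genes lie near 0.

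Egr2 itself did not pass. Beside it stands a list of 17 myelin genes and factors of Schwann cells, not all of which it drives. Of these 7 fell and 0 rose, where 8.71% of all genes fell. Pou3f1, a factor that precedes Egr2 in Schwann cells, fell by 0.78 ± 0.10 (SE) on the log2 scale (limma adjusted p = 5.67e-05). Sox10 fell by 0.46 (limma adjusted p = 8.58e-05), Sox2 by 0.44 (limma adjusted p = 0.00586) and Mag by 0.33 (limma adjusted p = 0.00583). The abundant myelin genes Mbp and Pmp22 had log2 differences of -0.12 and 0.09 and did not pass. Corrected for GC content, the log2 differences were smaller for Pou3f1 (-0.44) and Sox10 (-0.19) and alike for Sox2 (-0.44). Only these 3 genes of the list passed, and Mag (-0.16) did not.

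Markers of the cell types the tissue could hold were read beside the members. The sums of the 14 neuron markers overlapped (483055 to 508692 in NC-up and 478018 to 498931 in SETDB2-up), as did those of 7 satellite glia markers (107086 to 110315 and 94356.5 to 112880) and 7 Schwann cell markers (294391 to 308203 and 261083 to 296271). The Schwann list had 4 of 7 genes fall and the neuron list 2 of 14. These counts and those below are read beside the 8.71% of all genes that fell. The 8 macrophage markers overlapped, and 0 fell. Of 9 fibroblast markers 5 fell (sums 26275.3 to 31411.9 against 22370.0 to 26299.3), and of 7 endothelial markers 2 fell (sums 3622.85 to 3801.08 against 3295.48 to 3401.88). With the GC correction 0 Schwann cell and 0 endothelial markers passed, 4 fibroblast markers fell, and in the neuron list 2 fell and 2 rose.

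Keratinocyte markers were lower as well. The 7 listed summed to 334, 729 and 753 in NC-up, against 298, 291 and 282 in SETDB2-up, 5 of the 6 tested fell (3 after the GC correction), and Krt14 and Krt5 were at 0 in at least 1 library. Of the NC-up libraries, library 1 had the lowest keratinocyte sum, the highest Egr1 and Nr4a1 counts and the lowest Nr4a3 count. The Egr3 count of library 1 (284) lay between those of libraries 2 and 3 (398 and 265). Skeletal muscle markers gave 141 to 314 against 88.5 to 147. The part of these cell types in the members' results was not tested. In SETDB2-up library 3 the liver transcripts were far below libraries 1 and 2 but still above every NC-up library (56.2 against 14.8 to 25.9). There Egr1, Egr3, Nr4a1 and Nr4a3 stood at 211, 181, 916 and 25.9, like the other SETDB2-up libraries. With libraries 1 and 2 left out, the lone SETDB2-up library was assumed to vary like NC-up. The log2 differences were then -0.70 for Egr1, -0.78 for Egr3, -0.37 for Nr4a1 and -1.16 for Nr4a3, and of the 4 only Egr3 passed (limma adjusted p = 0.0460).

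For each member that fell, the genes with the most similar profile over the 6 libraries were found, by the root mean square difference of centred log2 levels. For Egr1 they were 1700008J07Rik (0.108) and Hhip (0.121), a decoy receptor for hedgehog ligands. For Egr3 they were the homeobox gene Prrx2 (0.050) and Zic2 (0.102), for Nr4a1 1700017B05Rik (0.035) and Dok3 (0.047), and for Nr4a3 Gm39326 (0.096) and Gm32592 (0.103). Other members were less near. The nearest to Egr1 was Egr3 at rank 89, and the nearest to Egr3 was Egr1 at rank 308. Nr4a2 ranked 222 in likeness to Nr4a1 and Egr3 ranked 93 to Nr4a3. These are descriptions over 6 libraries that share the group difference.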

How the data were processed

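Polyadenylated RNA was sequenced as paired reads of 150 bases from strand-specific libraries, per the labels' protocols. The submitters' processing notes name FastQC, HISAT2 and the GRCm38 build without versions. How reads were counted, with or without strand, on which annotation, and how size factors were set is not given in the sources. The deposited table holds a normalised signal, read counts that the authors divided by 1 factor per library, as the values show: 100% of values came out as whole reads (tolerance 0.001). A gene with 3 reads has 0.128 to 0.155 CPM.

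The values are normalised, so the main test was limma (3.58.1, R 4.3.3) with a mean-variance trend on log2(value + 1), over the 16387 genes that reached 1 in 3 or more libraries (28 were removed). Benjamini-Hochberg adjustment ran over all of them. Log2 differences are on this scale and understate the change of low genes. As an alternative on the recovered reads, edgeR (4.0.16) called 2695 genes and DESeq2 (1.42.0) 2797, against 2690. The GC correction removed a lowess curve (span 0.3) on the GC content of the longest GENCODE transcript, known for 94.7% of the listed genes. The scripts were tested on simulated data. No pair of libraries within a group agreed within counting error (chi-square over degrees of freedom, 3.97 to 9.94).

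The members and gene lists were chosen with earlier results of these data known. Named were all members, up to 4 genes of each list past the threshold with the smallest p and up to 2 others with the highest mean, the SRF, CREB, Egr corepressor and NR4A partner lists as needed, and the 2 most similar genes per member that fell. Alternatives covered the pseudocount, filter, tool, scaling, replicate block, GC correction and each library left out. A gene of the NR4A partner list is not reported here.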

Additional observations from a re-analysis of the deposited data

How the results depend on the processing

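Over 26 alternatives (20 set with the design and 6, the GC correction with each library left out, chosen after seeing the data), Egr1, Egr3, Nr4a1 and Nr4a3 kept a negative log2 difference. Egr1 lost its call in 9, Egr3 in 1, Nr4a1 in 5 and Nr4a3 in 3; Egr2 and Nr4a2 passed in none. Without a mean-variance trend 253 genes and 1 member passed, and Egr1 (-0.70), Egr3 (-0.71) and Nr4a1 (-0.46) lost their calls. With the GC correction 957 genes passed and Egr1 (-0.54) did not. Without SETDB2-up libraries 1 and 2, 540 genes and 1 member passed, with Egr1 at -0.70, Nr4a1 at -0.37 and Nr4a3 at -1.16 not past. Leaving out each library in turn gave 1093 to 3333 genes and 3 to 4 members, with Egr1 from -0.97 to -0.55, Egr3 from -0.83 to -0.54, Nr4a1 from -0.55 to -0.39 and Nr4a3 from -1.31 to -1.05. The GC correction with each library left out gave 343 to 985 genes and 1 to 4 members, with Egr1 from -0.81 to -0.39, Nr4a1 from -0.39 to -0.25 and Nr4a3 from -1.35 to -1.09. Of these, gene counts were 684, 427 and 601 without NC-up 1, 2 and 3, 343 and 622 without SETDB2-up 1 and 2 and 985 without SETDB2-up 3. Egr1 did not pass at -0.385, -0.426, -0.560, -0.548 and -0.511 (without NC-up 1 and 2 and SETDB2-up 1, 2 and 3), Nr4a1 at -0.249, -0.301 and -0.259 (without NC-up 1 and 2 and SETDB2-up 1) and Nr4a3 at -1.092 and -1.240 (without NC-up 2 and SETDB2-up 1). With the replicate number as a block 3618 genes and 4 members passed, and with the block and the GC correction together 1839 genes and 4 members, Egr1 among them (-0.54). Same-numbered libraries deviated together weakly (correlations 0.0383, 0.0359 and 0.0484), and each library correlated best with its own number. Pairs of NC-up and SETDB2-up libraries with unlike numbers had correlations of -0.0347 to -0.00557. The main test did not use the numbers as pairs, and whether they mark pairs or batches was not tested. Causes of these changes were not tested, except that fewer libraries enter the fits with libraries left out. Depth limits Nr4a3 most, with 266 recovered reads over the 6 libraries.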
